A study of Homo sapiens with 19 samples.

Results

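The lysosomal genes described here number 41 of the 62700 genes in the count files. They are 39 genes for lysosomal enzymes, their cofactors and lysosomal membrane proteins, and 2 genes for transcription factors that act on such genes, TFEB and TFE3. The list was set by gene name, with no measured value in the rule, and each name matched 1 gene. It was, however, chosen with earlier results of these data known. By role they are 9 proteases, 10 glycosidases, 4 sulfatases, 3 lipid and thioester hydrolases, 3 soluble cofactors, 7 membrane proteins, 3 parts of the proton pump and the 2 regulators. All 41 passed the filter on low counts in both fits used below.

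Lysosomes are acidic compartments in which hydrolases take apart proteins, sugars and lipids delivered by endocytosis and autophagy. The enzymes are made in the endoplasmic reticulum, most are tagged with mannose 6-phosphate in the Golgi apparatus, and a proton pump (the V-ATPase) keeps the lumen acidic. TFEB and TFE3 are basic helix-loop-helix factors of the MiT/TFE family that bind E-box-like elements near many lysosomal genes when they are in the nucleus; mTORC1, a kinase on the lysosomal surface, holds them in the cytoplasm.

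The cells were A549, a long-established line of human lung adenocarcinoma, and RNA was sampled from them by nanostraw electroporation (NEE), in which electric pulses through hollow nanotubes open the membranes of living cells. Cells grown as flat monolayers and as spheroids were lysed before NEE, right after it, and 2 h and 24 h after it, with 2 biological replicates for each of these 8 groups. A further 3 technical replicates held RNA drawn out of A549 monolayers by NEE. Tests on them take their spread from these technical replicates and the monolayer lysates together. They hold no spread between biological replicates of NEE-sampled RNA. No other agent or genetic change is given for any group. No group was kept for the same time without NEE, so NEE and time in culture cannot be told apart. Different purification kits served the lysates and the small amounts of RNA drawn by NEE, so that the route of sampling and the kit cannot be told apart either. The labels give no time for the NEE-sampled RNA.

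Libraries made with the Smart-Seq2 protocol gave 16031034 to 24571083 counts in lysates and 13626934 to 18512985 in NEE-sampled RNA. Levels are given as CPM, a gene's count relative to the size of its library after scaling by TMM, a method that equalises the bulk of genes between libraries. Epithelial keratins and adhesion genes, the markers of A549 cells, summed to 5869 to 25230 CPM in monolayers, 13000 to 18090 CPM in spheroids and 20560 to 25070 CPM in NEE-sampled RNA. Most of each sum came from KRT8, KRT18 and KRT7, and single markers differed between the kinds of library. KRT7 had 976 to 1542 CPM in monolayers and 486 to 921.5 CPM in spheroids. CDH1 had 15.2 to 95.6 CPM in monolayers, 93.0 to 229 CPM in spheroids and 6.94 to 14.6 CPM in NEE-sampled RNA. EPCAM had only 1.62 to 11.1 CPM in any library. The library of monolayers before NEE, replicate 1, stood apart. It held the lowest of the epithelial sums. There 14 markers of NK and T cells summed to 696 CPM. They summed to 25.7 to 38.8 CPM in the other monolayer libraries, 22.8 to 65.5 CPM in spheroids and 1.70 to 5.83 CPM in NEE-sampled RNA. Calls that turn on this library, and the values of members compared with before NEE that it moves, are given without it as well. The 10 myeloid markers summed to 10.7 to 27.4 CPM in monolayers and 32.4 to 100.3 CPM in spheroids; CD14 alone had 0.744 to 22.4 CPM and 28.8 to 88.0 CPM, and ITGAM had the largest value of the list in monolayers before NEE, replicate 1, at 16.1 CPM. AIF1 and CD163 were at 0 in every library. The 8 fibroblast markers summed to 10.3 to 41.8 CPM in monolayers and 5.82 to 11.04 CPM in spheroids, and the 5 endothelial markers to at most 18.5 CPM. In bulk RNA, fewer cells of a type and less RNA per cell cannot be told apart.

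The E-box CACGTG, and in particular its 8-base form TCACGTGA, is the core of the element through which MiT/TFE factors act, so the RefSeq promoter windows of the members (GRCh38.p14, 250 bases before to 50 after each start site) were searched for both, on both strands; both motifs are palindromes, and each TCACGTGA also contains a CACGTG. A window was given for 30 of the 41 members. CACGTG occurred in 10 of the 30 (33.3%), against 8.77% of the 27305 genes in the table. TCACGTGA occurred in 6 of the 30, against 1.18% of all genes. Such elements are known near many lysosomal genes, so these shares describe the list and are no finding of these data. All 9 matches of the longer motif are printed, whether or not the gene differed between groups, because they are the letters these factors are known to read. Each line gives 20 bases on either side, written 5′ to 3′ on the strand of the gene, with the motif in capitals.
CTSA, chr20:45891289-45891336 (plus strand), motif from 26 bases before the start site: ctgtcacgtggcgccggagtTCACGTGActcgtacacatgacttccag
GAA, chr17:80101484-80101531 (plus strand), motif from 77 bases before the start site: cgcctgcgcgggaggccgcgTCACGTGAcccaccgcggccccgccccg
GAA, chr17:80101529-80101576 (plus strand), motif from 32 bases before the start site: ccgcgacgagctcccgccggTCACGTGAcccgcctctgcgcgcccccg
LAMP1, chr13:113297190-113297237 (plus strand), motif from 29 bases before the start site: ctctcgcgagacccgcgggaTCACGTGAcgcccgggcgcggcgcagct
LAMP1, chr13:113297217-113297264 (plus strand), motif from 2 bases before the start site: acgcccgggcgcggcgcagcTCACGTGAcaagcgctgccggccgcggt
MCOLN1, chr19:7522562-7522609 (plus strand), motif from 42 bases before the start site: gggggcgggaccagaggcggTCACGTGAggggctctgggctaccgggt
MCOLN1, chr19:7522589-7522636 (plus strand), motif from 15 bases before the start site: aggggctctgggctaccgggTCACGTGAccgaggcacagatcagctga
CLN3, chr16:28492049-28492096 (minus strand), motif from 2 bases before the start site: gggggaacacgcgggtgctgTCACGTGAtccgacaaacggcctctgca
ATP6V0D1, chr16:67481190-67481237 (minus strand), motif from 60 bases before the start site: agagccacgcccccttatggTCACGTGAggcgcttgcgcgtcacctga
GAA, LAMP1 and MCOLN1 carried the motif in a pair of places each. CTSD, NEU1, ARSB and CD63 held CACGTG without the outer bases. These are matches of letters and no measurement of binding. Of the 6 genes with the longer motif, CTSA, GAA and LAMP1 were called higher in spheroids than in monolayers, and MCOLN1, CLN3 and ATP6V0D1 were not.

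In monolayers the members took up 1.02% to 1.16% of all counts, in spheroids 1.81% to 2.31%, and in NEE-sampled RNA 0.353% to 0.485%. The ranges of the 3 kinds of library did not overlap. One gene, PSAP, which encodes the precursor of the saposins that present glycolipids to hydrolases, made up a large part of each sum. Without it the shares were 0.696% to 0.862% in monolayers, 1.2% to 1.61% in spheroids and 0.327% to 0.441% in NEE-sampled RNA, and still did not overlap. Proteases took up 0.249% to 0.389% of counts in monolayers and 0.486% to 0.814% in spheroids. The soluble cofactors took up 0.329% to 0.449% and 0.7605% to 0.887%.

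**Figure D1:**
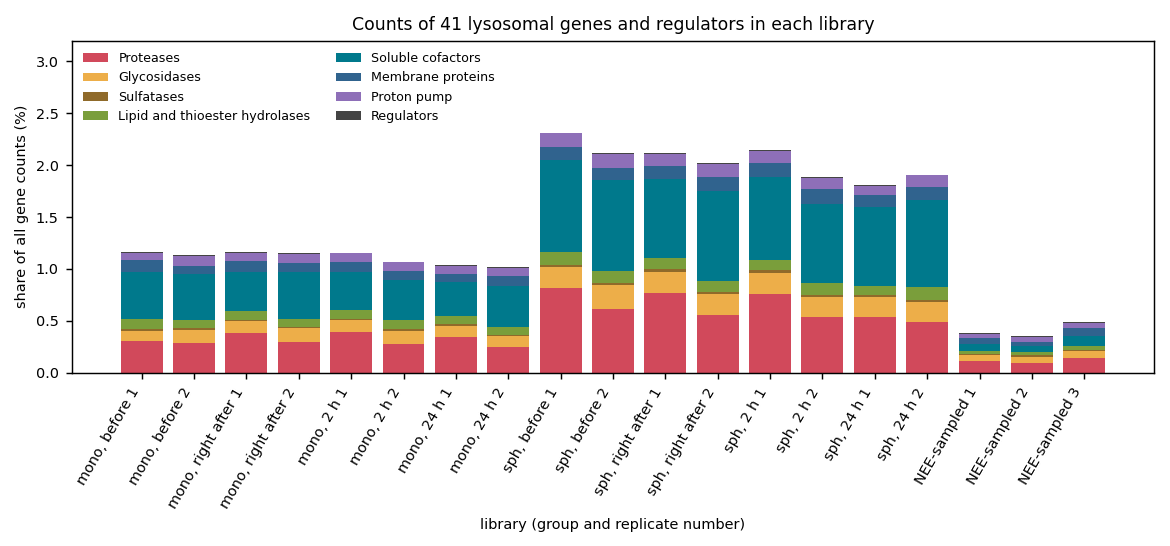
Share of all gene counts, in percent, taken by the 41 genes in each of the 19 libraries (mono, monolayer; sph, spheroid), stacked by role. The 8 spheroid bars end between 1.81% and 2.31%, the 8 monolayer bars between 1.02% and 1.16% and the 3 NEE-sampled bars between 0.353% and 0.485%.

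Levels compared between genes are per kilobase of the principal transcript in GENCODE 29. In monolayers PSAP was the highest at 1065 ± 137 CPM per kb (SD, n = 8 libraries). The cysteine proteases CTSL and CTSB followed at 386 ± 127 and 278 ± 43.1 CPM per kb, and GRN, the precursor of the granulins, stood at 268 ± 16.9 CPM per kb. The ranges of CTSL, CTSB and GRN overlapped. Within the same library, CTSL lay above CTSB except in monolayers before NEE, replicate 1. It lay above GRN except in monolayers at 24 h, replicate 2. CTSB lay above GRN in each replicate 1 and below it in each replicate 2. The order of these genes was not tested. ATP6AP1, an accessory subunit of the proton pump, reached 217 ± 25.6 CPM per kb and the tetraspanin CD63 171 ± 51.2 CPM per kb. At the other end were TFEB at 1.36 ± 0.629, LAMP1 at 1.25 ± 0.330 and CLN3 at 0.193 ± 0.160 CPM per kb. LAMP1 encodes one of the most abundant glycoproteins of the lysosomal membrane, yet it had only 38 to 257 counts in any lysate, while its relative LAMP2 had 103 ± 15.5 CPM per kb in monolayers. CTSZ was also low, with 20 to 160 counts per lysate. No other gene placed in GENCODE 29 overlaps LAMP1 or CTSZ. Only 58207 of the 62700 genes in the count files are placed there, so overlaps with the rest could not be seen. How the authors' annotation and counting treated these loci is not given in the sources used here.

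Spheroids were compared with monolayers to ask how the form of culture bears on these transcripts. Over the 4 times, 28 of the 41 members passed the test as higher in spheroids and none as lower (edgeR's quasi-likelihood test, Benjamini-Hochberg adjusted p under 0.05 over all genes). Of all 17822 genes tested, 10.0% passed as higher and 9.84% as lower. The members' median log2 fold change was 0.73 and 35 of the 41 were above 0, against a median of -0.02 and 48.6% above 0 over all genes. At an unadjusted p under 0.05, where 32.8% of all genes lay, 30 members were higher and none lower, and DESeq2 called 28 higher and none lower. In 16 members all 8 spheroid libraries lay above all 8 monolayer libraries, which held for 2.97% of all genes; in none were they all below, as in 3.36% of all genes.

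The largest difference was in CTSD, the main aspartic protease of lysosomes (ENSG00000117984, chr11:1752752-1764573, minus strand, GRCh38). Its level was 132 to 246 CPM in the 8 monolayer libraries, with a median of 207 CPM. In the 8 spheroid libraries it was 482 to 703 CPM, with a median of 625 CPM. The 2 ranges were far apart, and the lowest monolayer value was that of replicate 1 before NEE. The fold was 2.92 (log2 1.55 ± 0.12 SE, adjusted p = 7.31e-06).

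FUCA1, the lysosomal fucosidase (ENSG00000179163, chr1:23845077-23868294, minus strand), had 35.2 to 64.6 CPM in monolayers, with a median of 47.1 CPM, and 98.1 to 164 CPM in spheroids, with a median of 135 CPM. Every spheroid library exceeded every monolayer library, 2.68-fold on average (log2 1.42 ± 0.16 SE, adjusted p = 5.58e-05). GAA, the acid glucosidase that degrades glycogen (ENSG00000171298, chr17:80101556-80119879, plus strand), had 186 to 280.1 CPM in monolayers, with a median of 226 CPM, and 524 to 690.4 CPM in spheroids, with a median of 586 CPM. Its libraries did not overlap either, with a fold of 2.58 (log2 1.37 ± 0.10 SE, adjusted p = 4.55e-06). GRN (ENSG00000030582, chr17:44345086-44353102, plus strand) had 577 to 682 CPM in monolayers, with a median of 625.5 CPM, and 1378 to 1790 CPM in spheroids, with a median of 1587 CPM. The gap between the ranges was wide, with a fold of 2.57 (log2 1.36 ± 0.09 SE, adjusted p = 1.85e-06).

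**Figure D2:**
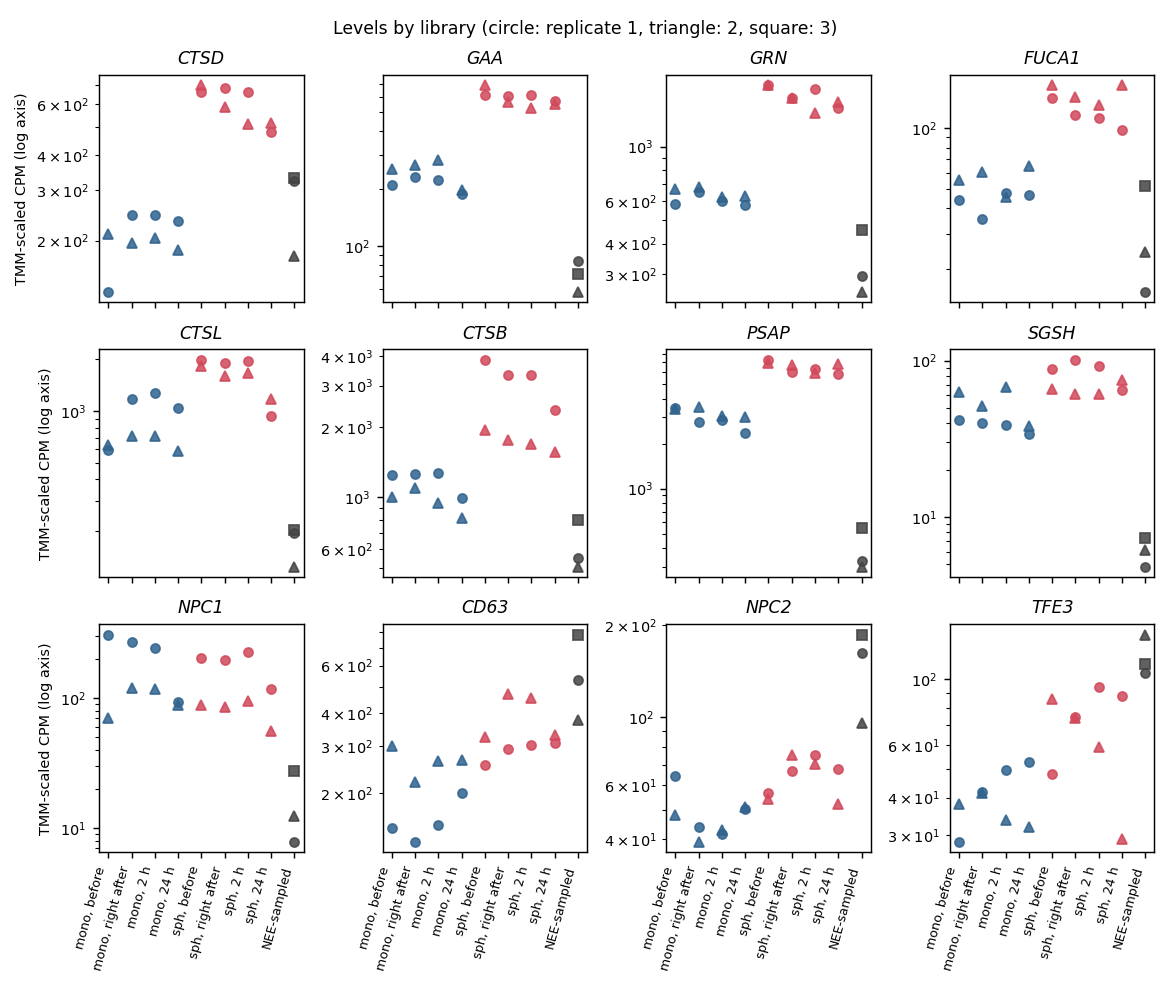
TMM-scaled CPM (log axis) of 12 genes in each library, by group; blue marks monolayers, red spheroids and grey NEE-sampled RNA, and the marker shape gives the replicate number. CTSD, GAA, GRN, FUCA1, CTSB and PSAP show all red points above all blue ones, while CTSL shows an overlap at 24 h; NPC1 and CTSB split by replicate number.

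Among the proteases, 7 of 9 were higher in spheroids. Besides CTSD these were the serine carboxypeptidase CTSA (2.40-fold), the cysteine proteases CTSB (2.30-fold), CTSC (2.13-fold) and CTSL (1.94-fold), the tripeptidyl peptidase TPP1 (1.64-fold) and the asparaginyl endopeptidase LGMN (1.45-fold). CTSH and CTSZ did not pass, with log2 values of 0.38 and -0.08. CTSH passed when replicate 2 of monolayers before NEE was left out (log2 0.64, adjusted p = 0.00711). CTSL is the called protease whose libraries overlapped: spheroids before NEE to 2 h had 1601 to 1992 CPM, but the 24 h spheroids had 932 and 1184 CPM, within the monolayer range of 582 to 1271 CPM.

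Of the glycosidases, 9 of 10 were higher. HEXA, a subunit of the hexosaminidase that degrades gangliosides, was 2.08-fold higher, and the mannosidases MANBA and MAN2B1 1.99-fold and 1.95-fold. The glucuronidase GUSB was 1.91-fold, the galactosidase GLB1 1.86-fold, the sialidase NEU1 1.66-fold and the glucosaminidase NAGLU 1.56-fold higher. The exception was GLA, the alpha-galactosidase, at 94.7 to 267 CPM in monolayers and 116 to 198 CPM in spheroids (log2 -0.29, adjusted p = 0.253). The lowest of all 16 lysate values of GLA was that of monolayers before NEE, replicate 1. Without that library GLA passed as lower in spheroids (log2 -0.41, adjusted p = 0.0407), as it did without all libraries from before NEE (log2 -0.43, adjusted p = 0.0369).

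Of the sulfatases, which remove sulfate from glycosaminoglycans and sulfatides, ARSA (2.03-fold) and SGSH (1.65-fold) were higher and ARSB and IDS did not pass (log2 0.19 and -0.20). Of the lipid and thioester hydrolases, the acid ceramidase ASAH1 was 1.98-fold higher. LIPA, which hydrolyses cholesteryl esters, and the palmitoyl thioesterase PPT1 did not pass, with log2 values of 0.34 and 0.03. LIPA passed when monolayers before NEE, replicate 1, were left out (log2 0.45, adjusted p = 0.0218).

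The 3 soluble cofactors were all higher. PSAP had 2369 to 3540 CPM in monolayers and 5809 to 7286 CPM in spheroids, a 2.13-fold difference with no overlap. NPC2, which carries cholesterol inside the lysosome, was 1.37-fold higher (adjusted p = 0.0148) and its libraries overlapped, at 39.3 to 64.3 CPM and 52.2 to 75.6 CPM. Without a filter on low counts NPC2 did not pass (adjusted p = 0.0779).

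Membrane proteins were mixed, with 4 of 7 higher and no member whose libraries were fully apart. SCARB2, the receptor that carries glucocerebrosidase to lysosomes, was 2.13-fold higher, LAMP1 2.48-fold, CD63 1.63-fold and LAMP2 1.49-fold. NPC1, the membrane partner of NPC2 in cholesterol export, did not pass (log2 -0.26 ± 0.37 SE, and 0.10 without monolayers before NEE, replicate 1), nor did the calcium channel MCOLN1 (log2 -0.18) or CLN3 (log2 -0.68 ± 0.79 SE, with 134 counts in all monolayers and 63 in all spheroids). Of the proton pump, ATP6AP1 was 1.70-fold higher, while ATP6V0D1 and ATP6V1H, subunits of its membrane and cytosolic sectors, did not pass (log2 0.25 each).

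TFE3 was higher in spheroids and TFEB was not called. TFE3 (chrX:49028726-49043486, minus strand) had 28.4 to 52.6 CPM in monolayers, with a median of 39.8 CPM, and 28.9 to 94.3 CPM in spheroids, with a median of 74.5 CPM. The ranges overlapped, since replicate 2 of spheroids at 24 h held the lowest spheroid value. The fold was 1.75 (log2 0.80 ± 0.23 SE, adjusted p = 0.0237). TFEB had 1.31 to 5.94 CPM in monolayers and 2.41 to 5.50 CPM in spheroids (log2 0.19 ± 0.32 SE, adjusted p = 0.764).

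**Figure D3:**
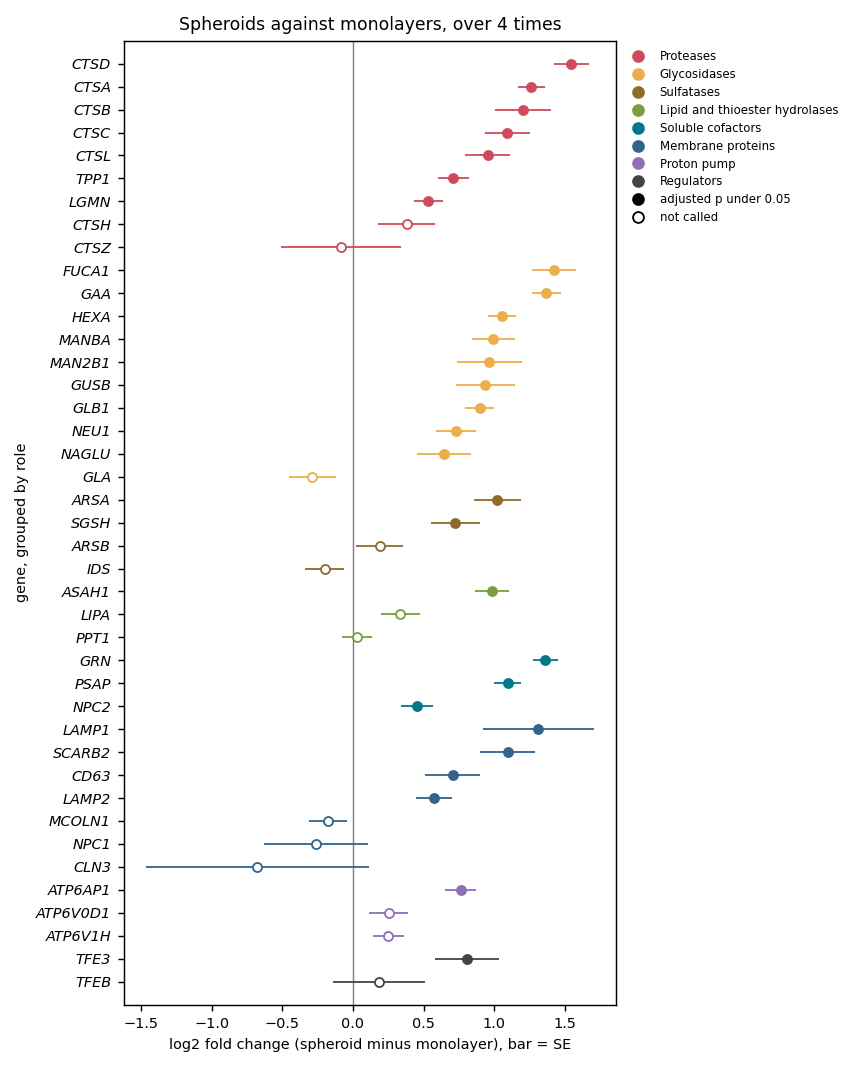
Log2 fold change of each gene, spheroids minus monolayers over the 4 times, with its SE; filled points passed the test. Of 41 points, 35 lie above 0, and the 28 filled ones all do.

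The higher level of most members was seen with both replicate numbers, which the labels enter as the batch. Of all 41 members, 34 had a higher mean in spheroids within replicate 1 and 35 within replicate 2. The 28 called members were among them in both. They were called from these same libraries, so their agreement is no separate support. All 4 spheroid libraries lay above all 4 monolayer libraries in 23 members within replicate 1 and in 24 within replicate 2. They lay below them in 0 members within replicate 1 and in 1, GLA, within replicate 2. The shares of all genes with such a gap, or with a higher mean, within a replicate number were not computed. None of these counts therefore has a background beside it. A gap between 4 and 4 libraries arises more easily than between 8 and 8, so the share given above for all libraries does not serve. In 24 of the 28 the call was kept whichever single library of the 16 was left out. CD63 lost it without replicate 1 of monolayers right after, 2 h or 24 h after NEE or replicate 2 of spheroids right after or 2 h after NEE (log2 0.62 to 0.66, adjusted p 0.0504 to 0.0551). TFE3 lost it without replicate 1 of monolayers before NEE, replicate 2 of monolayers at 2 h or 24 h, replicate 2 of spheroids before NEE, or replicate 1 of spheroids at 2 h or 24 h (log2 0.56 to 0.76, adjusted p 0.0543 to 0.0581). LAMP1 and NAGLU lost it in 9 of the 16 cases each, with log2 0.90 to 1.38 (adjusted p 0.0510 to 0.107) and 0.54 to 0.65 (adjusted p 0.0528 to 0.0762). For LAMP1 these were replicate 2 of each monolayer group, replicate 1 of monolayers at 2 h, replicate 2 of spheroids before and right after NEE, and replicate 1 of spheroids at 2 h and 24 h. For NAGLU they were replicate 1 of monolayers before NEE, both replicates right after it, replicate 2 at 2 h and 24 h, and in spheroids replicate 2 before NEE, replicate 1 right after, replicate 2 at 2 h and replicate 1 at 24 h. Without the 4 libraries from before NEE, 25 members were called higher and 1, GLA, lower. The part of the NK and T cell and CD14 transcripts in this result was not tested; without the library that held the former, 27 members were called higher.

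Before NEE alone, with 2 libraries in each culture, 11 members passed as higher and none as lower, against 0.701% and 0.595% of all genes. At an unadjusted p under 0.05, where 16.4% of all genes lay, there were 25 members. CTSD had 132 and 210.4 CPM in monolayers and 665 and 703 CPM in spheroids, a 4.03-fold difference (log2 2.01 ± 0.25 SE, adjusted p = 0.00371). CTSL had 595 and 633 CPM against 1992 and 1826 CPM, 3.13-fold (log2 1.65 ± 0.33 SE, adjusted p = 0.0286). In both genes the pairs of values were well apart. FUCA1 had 44.0 and 55.0 CPM against 141 and 163 CPM, 3.09-fold (log2 1.63 ± 0.31 SE, adjusted p = 0.0259). CTSA had 174 and 200.5 CPM against 567 and 517 CPM, 2.92-fold (log2 1.55 ± 0.20 SE, adjusted p = 0.00371). The other called members were GRN, GAA, HEXA, ASAH1, PSAP, ATP6AP1 and GLB1, with log2 values of 0.98 to 1.53. The proteases CTSC and CTSB and the sialidase NEU1 did not pass, but did with the replicate number as a block (adjusted p = 0.0148, 0.0108 and 0.0313), as well as with DESeq2 and without a filter on low counts. Without monolayers before NEE, replicate 1, which held the NK and T cell transcripts, the calls of CTSD, CTSA, GAA and GRN were kept and 4 members were called in all. The folds were then 3.29 for CTSD (adjusted p = 0.0299), 3.06 for CTSL, 2.79 for FUCA1 and 2.74 for CTSA (adjusted p = 0.0352). The other 7 then had log2 values of 0.78 to 1.61 and adjusted p of 0.0545 to 0.218. Without spheroids before NEE, replicate 1 or replicate 2, 4 and 5 members were called. DESeq2 called 17 members.

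After NEE, no member passed the test at any time. Each later time was compared with before NEE in each culture (6 comparisons), in both cultures together (3) and between the cultures as an interaction (3), and edgeR and DESeq2 each called 0 of the 41 members in all 12. The adjusted p was at least 0.9999 for every member. Over all genes edgeR called 0.00561% at 2 h in monolayers, 0.0112% at 2 h in spheroids, 0.0337% at 2 h in both together and 0% elsewhere. At an unadjusted p under 0.05 there were 0 members right after NEE, 1 at 2 h and 0 at 24 h in monolayers, where 2.25%, 3.39% and 4.42% of all genes lay. In spheroids there were 0, 0 and 3 members at these times, against 2.01%, 3.39% and 2.5% of all genes. For both cultures together there were none at any time, against 2.25%, 4.84% and 4.0%. In the interactions there were 1, 1 and 2 members, against 2.90%, 3.11% and 3.52%. Changes of modest size could have gone uncalled with 2 libraries per group.

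CTSL had the smallest unadjusted p in 4 of these 12 comparisons. In monolayers it was at 595 and 633 CPM before NEE, 1171 and 713 right after, 1271 and 716 at 2 h, and 1038 and 582 at 24 h. Replicate 1 held the higher value at each later time. In spheroids it was at 1992 and 1826 CPM before NEE, 1900 and 1601 right after, 1963 and 1671 at 2 h, and 932 and 1184 at 24 h, so that both 24 h values lay below all the others. The log2 fold changes against before NEE were 0.62, 0.69 (unadjusted p = 0.0486) and 0.42 in monolayers and -0.86 at 24 h in spheroids (unadjusted p = 0.0182). The interaction at 24 h was -1.28 ± 0.45 SE (unadjusted p = 0.0135). Without monolayers before NEE, replicate 1, the monolayer values of CTSL were 0.58, 0.65 and 0.39 and the interaction at 24 h -1.23. None passed, with adjusted p = 1 for each.

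In monolayers right after NEE, the other members with the smallest p were NPC2 (log2 -0.43), CTSD (log2 0.37) and CTSH (log2 0.60), and at 2 h GLA (log2 0.60), NPC2 (log2 -0.41) and TFEB (log2 -1.12). CTSD, CTSH and GLA had their lowest monolayer values, 132, 14.1 and 94.7 CPM, in replicate 1 before NEE. Without that library the values were 0.08 for CTSD, 0.01 for CTSH and -0.20 for NPC2 right after NEE, and 0.11 for GLA, -0.18 for NPC2 and -1.19 for TFEB at 2 h. At 24 h PSAP (log2 -0.33), SGSH (log2 -0.52), GLB1 (log2 -0.28) and NPC1 (log2 -1.03) came first. NPC1 had 308 and 70.2 CPM before NEE and 93.4 and 89.3 CPM at 24 h, and its direction turned without replicate 1 before NEE (log2 0.41). PSAP, SGSH and GLB1 were then at -0.31, -0.77 and -0.42. Of the 41 members, 14 right after NEE, 15 at 2 h and 16 at 24 h had the opposite sign in monolayers when that library was left out. In spheroids NPC2 came first both right after NEE (log2 0.36) and at 2 h (log2 0.40). HEXA, ATP6V1H and PPT1 followed right after NEE, with log2 values of -0.25 to -0.29, and GLB1, PPT1 and ATP6AP1 at 2 h, with -0.28 to -0.32. NPC2 had values of opposite sign in the cultures, with an interaction of 0.79 ± 0.33 SE right after NEE (unadjusted p = 0.0307) and 0.81 ± 0.33 SE at 2 h (unadjusted p = 0.0279), and did not pass. Without monolayers before NEE, replicate 1, these interactions were 0.55 and 0.57. Its values right after NEE were 43.8 and 39.3 CPM in monolayers, from 64.3 and 47.9, and 66.7 and 75.6 CPM in spheroids, from 56.5 and 54.2.

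At 24 h in spheroids no member passed, but 34 of the 41 were below 0, with a median log2 of -0.23, while 49.8% of all genes were above 0. Besides CTSL, NEU1 had 198 and 212 CPM before and 127 and 141 CPM at 24 h (log2 -0.61, unadjusted p = 0.0467). ATP6AP1 had 928.5 and 864 CPM before and 556 and 746 CPM at 24 h (log2 -0.47, unadjusted p = 0.0485), and CTSD had 665 and 703 CPM before and 482 and 517 CPM at 24 h (log2 -0.46, unadjusted p = 0.0828). In these 3 genes both 24 h values lay below both values from before NEE. In monolayers at 24 h 27 members were below 0, with a median of -0.05, and 23 without replicate 1 before NEE. For both cultures together at 24 h, 34 were below 0, with a median of -0.14 (32 and -0.16 without that library), and PSAP, GLB1, PPT1 and GAA had the smallest p, with log2 values of -0.24 to -0.27. All these comparisons share the libraries from before NEE.

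**Figure D4:**
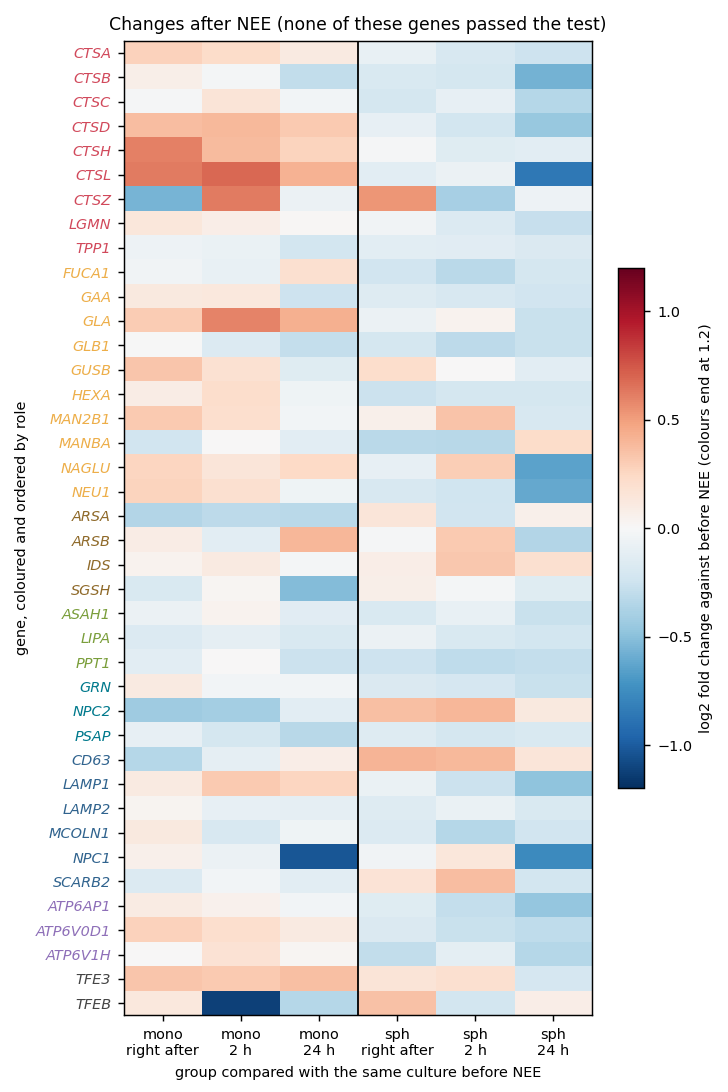
Log2 fold change of 40 genes against before NEE in the same culture, at each later time; colours end at 1.2, and CLN3 is left out because of its low counts. The column for spheroids at 24 h is mostly blue, with CTSL at -0.86, and the monolayer columns right after and at 2 h show CTSL at 0.62 and 0.69. The monolayer columns use the library before NEE, replicate 1, without which 13 to 15 of the 40 genes in each had the opposite sign.

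For both cultures together the 4 smallest p right after NEE were those of MANBA, PPT1, CTSL and CTSH, with log2 values of -0.28 to 0.29, and at 2 h those of GLB1, PSAP, TFEB and MCOLN1, with -0.24, -0.21, -0.67 and -0.27. The next members in the interactions were CTSL (-0.75), CTSD (-0.48) and CD63 (0.75) right after NEE, CTSD (-0.61), CTSL (-0.76) and HEXA (-0.42) at 2 h, and CTSD (-0.77), NAGLU (-0.89) and ARSB (-0.75) at 24 h, none of which passed. Without monolayers before NEE, replicate 1, the interactions at 24 h of CTSD and NAGLU were -0.47 and -0.45, and CTSH was at -0.01 right after NEE in both cultures together. Of the regulators, TFE3 had log2 values of 0.33, 0.32 and 0.36 in monolayers at the 3 later times (0.13, 0.12 and 0.18 without that library), none with an unadjusted p under 0.05.

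The RNA that NEE drew from monolayers was compared with monolayer lysates to ask how far it mirrors them for these transcripts. A majority of the members were lower in it, while NPC2, CD63, IDS and both regulators were among those higher. Against monolayers over the 4 times, 23 of the 41 members passed as lower and 7 as higher, where 26.0% and 22.5% of the 17067 genes tested did. The members' median log2 fold change was -0.75 and that of all genes -0.20. In 20 members all 3 NEE-sampled libraries lay below all 8 monolayer libraries and in 5 above them, against 23.2% and 21.3% of all genes. The count of calls thus lay above the background for lower. For higher it lay near the background, and some of those calls rested on single libraries, as given below. At an unadjusted p under 0.05, where 55.6% of all genes lay, there were 33 members. This comparison shares the monolayer libraries with the one between cultures. With the 3 technical replicates summed into 1 library, whose spread is then assumed to be that of the lysates, fewer members were called. No called member changed sign there.

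Among the members that were lower, CLN3, NPC1, PSAP and SGSH came first. CLN3, a membrane protein lost in a childhood neuronal storage disease, had 1 count in the 3 NEE-sampled libraries and 134 in the 8 monolayer libraries. The ratio of levels was 0.0334 (exact 95% interval 0.000839 to 0.189, counting error only). With 1 count in NEE-sampled RNA, it passed the filter on low counts only through monolayer libraries, where it was higher. CLN3 is counted among the members called lower, but its call and its first place are therefore no support for a difference. It lost its call with the replicate block (adjusted p = 0.113), without a filter on low counts (adjusted p = 0.0688), without replicate 1 of monolayers before NEE, replicate 2 of those right after or at 2 h, or replicate 1 or 3 of NEE-sampled RNA (log2 -4.17 to -3.77, adjusted p 0.0529 to 0.0847), and with the technical replicates summed (adjusted p = 0.144). NPC1 (ENSG00000141458, chr18:23506184-23586898, minus strand) had 7.83, 12.3 and 27.4 CPM in NEE-sampled RNA and 70.2 to 308 CPM in monolayers, with a median of 119 CPM. The groups were apart despite the wide spread of the monolayers (log2 -3.34 ± 0.56 SE, 10.1-fold lower, adjusted p = 0.000414). The mean level in NEE-sampled RNA was 0.0691 of that in replicate 1 of the monolayers and 0.160 of that in replicate 2. In replicate 2 this was a smaller difference than those of PSAP, at 0.121, and SGSH, at 0.111.

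PSAP (ENSG00000197746, chr10:71816298-71851375, minus strand) had 329, 299 and 548.9 CPM in NEE-sampled RNA and 2369 to 3540 CPM in monolayers, with a median of 3024 CPM. No NEE-sampled library came near the monolayer range (log2 -2.99 ± 0.23 SE, 7.96-fold lower, adjusted p = 2.18e-06). SGSH (ENSG00000181523, chr17:80206716-80220923, minus strand) had 4.81, 6.16 and 7.39 CPM in NEE-sampled RNA and 34.0 to 67.5 CPM in monolayers, with a median of 40.9 CPM. It was 7.72-fold lower with no overlap (log2 -2.95 ± 0.30 SE, adjusted p = 1.24e-05).

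Above the monolayers, NPC2 (ENSG00000119655, chr14:74476192-74494177, minus strand) had 162, 95.5 and 186 CPM in NEE-sampled RNA against 39.3 to 64.3 CPM in monolayers, with a median of 45.9 CPM. It was 3.06-fold higher with no overlap (log2 1.61 ± 0.20 SE, adjusted p = 4.56e-05). TFE3 had 105, 141 and 113 CPM against 28.4 to 52.6 CPM, 2.96-fold higher with no overlap (log2 1.56 ± 0.21 SE, adjusted p = 7.88e-05). CD63 (ENSG00000135404, chr12:55725323-55729707, minus strand) had 531, 377 and 783 CPM against 132 to 301 CPM, with a median of 210.1 CPM. All 3 libraries exceeded the monolayers, 2.62-fold on average (log2 1.39 ± 0.28 SE, adjusted p = 0.00135). TFEB (chr6:41683978-41736259, minus strand) had 11.5, 5.75 and 6.03 CPM against 1.31 to 5.94 CPM, with a median of 3.04 CPM. The groups overlapped and the call was marginal (log2 1.31 ± 0.45 SE, adjusted p = 0.0287). TFEB lost it without a filter (adjusted p = 0.0680), with the technical replicates summed (adjusted p = 0.129), and without replicate 1 of monolayers before, right after or 2 h after NEE, replicate 2 of monolayers at 24 h, or replicate 1 of NEE-sampled RNA (log2 0.92 to 1.27, adjusted p 0.0514 to 0.163).

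**Figure D5:**
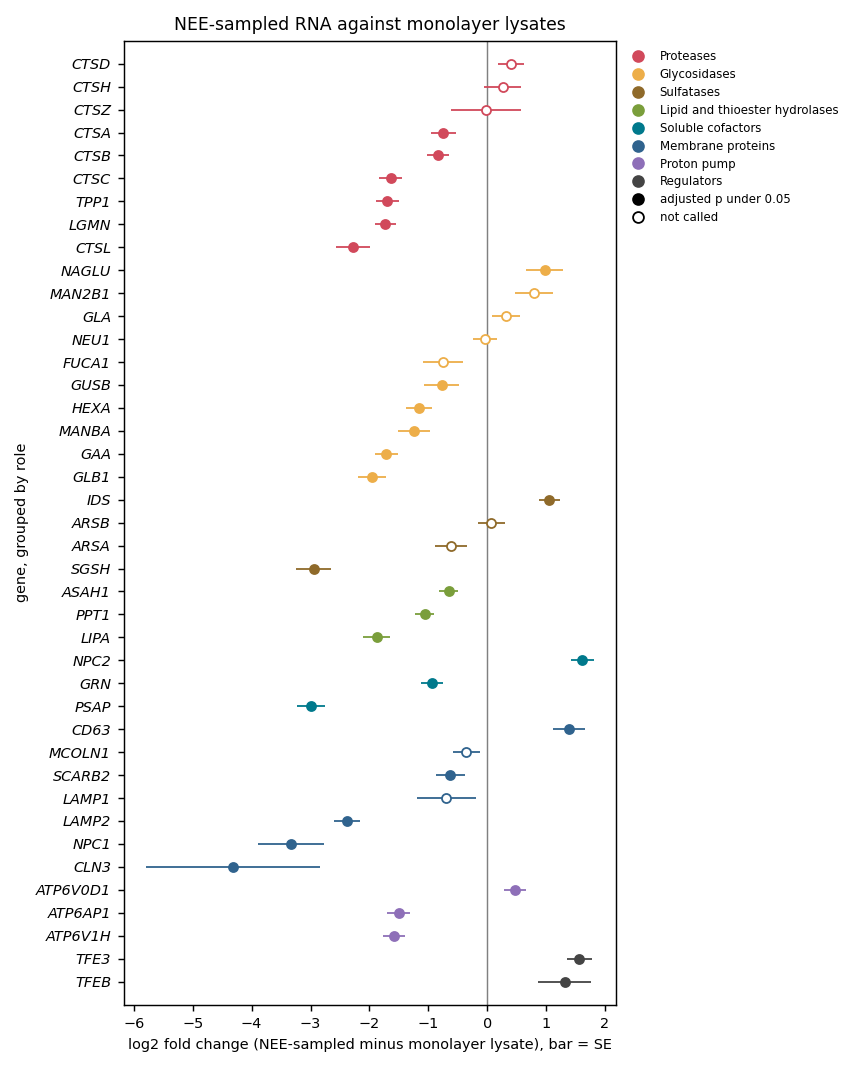
Log2 fold change of each gene, NEE-sampled RNA minus monolayer lysates over the 4 times, with its SE, ordered within role; filled points passed the test. Of the filled points, 23 lie below 0 and 7 above, with NPC2 at 1.61 and TFE3 at 1.56 the highest.

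By role, 6 of 9 proteases were lower and none higher, from CTSL (4.85-fold) and LGMN (3.33-fold) to CTSB and CTSA (1.78-fold and 1.68-fold). CTSD, the gene with the largest difference between cultures, did not pass (log2 0.40 ± 0.22 SE), with 324, 176.5 and 332 CPM; without replicate 2 of NEE-sampled RNA it passed as higher (log2 0.64, adjusted p = 0.0307). Of the glycosidases 5 were lower, led by GLB1 (3.88-fold) and GAA (3.28-fold), and NAGLU was 1.96-fold higher. MAN2B1 did not pass (log2 0.79, adjusted p = 0.0639) but did with DESeq2 and with RLE or upper-quartile scaling (log2 0.86 to 0.95, adjusted p 0.0274 to 0.0416). FUCA1 did not pass (log2 -0.75, adjusted p = 0.0851), but its NEE-sampled values of 15.4, 24.2 and 51.4 CPM were spread, and without replicate 3 of NEE-sampled RNA it passed as lower (log2 -1.35, adjusted p = 0.0058). The sulfatases split, with SGSH lower and IDS 2.07-fold higher, at 127, 138 and 121 CPM against 47.0 to 72.3 CPM in monolayers. All 3 lipid and thioester hydrolases were lower (LIPA 3.67-fold, PPT1 2.09-fold, ASAH1 1.57-fold). Of the soluble cofactors GRN was 1.92-fold lower beside PSAP. Of the membrane proteins LAMP2 was 5.21-fold and SCARB2 1.54-fold lower beside NPC1 and CLN3. Of the proton pump ATP6V1H and ATP6AP1 were 2.99-fold and 2.84-fold lower, and ATP6V0D1 was 1.39-fold higher.

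Several of the smaller calls rested on single libraries. ATP6V0D1 lost its call in 8 of the 11 cases in which 1 library was left out (log2 0.39 to 0.48, adjusted p 0.0702 to 0.169), GUSB in 7 (log2 -0.90 to -0.62), SCARB2 in 7 (log2 -0.65 to -0.48), and CTSA and NAGLU in 2 each: CTSA without replicate 1 or 2 of NEE-sampled RNA (log2 -0.62 to -0.59) and NAGLU without replicate 1 or 3 (log2 0.74 to 0.85). For ATP6V0D1 these were both replicates right after NEE, at 2 h and at 24 h of the monolayers and replicates 2 and 3 of NEE-sampled RNA. For GUSB they were replicate 2 before and right after NEE and replicate 1 at 2 h and 24 h of the monolayers and all 3 of NEE-sampled RNA. For SCARB2 they were replicate 1 of each monolayer group, replicate 2 at 24 h, and replicates 2 and 3 of NEE-sampled RNA. SCARB2 was also lost with DESeq2, and SCARB2 and GUSB with RLE or upper-quartile scaling. With the replicate block NAGLU, ATP6V0D1 and GUSB were not called (adjusted p = 0.165, 0.170 and 0.0656), and FUCA1 was called lower (log2 -1.38, adjusted p = 0.00183). In 23 of the 30 called members the call was kept whichever library was left out. All 7 members called higher and all 23 called lower had the same direction against replicate 1 of the monolayers and against replicate 2. They were called from these same libraries, so this agreement is no separate support. Against monolayers before NEE alone, 20 members were lower and 4 higher (TFE3, NPC2, CD63 and IDS), where 22.5% and 15.6% of all genes were. At an unadjusted p under 0.05, where 47.3% of all genes lay, there were 29 members. CLN3, NPC1, PSAP and SGSH again led, with the limit given above for CLN3. NPC1 was at a log2 of -3.57 (-2.19 without monolayers before NEE, replicate 1), PSAP at -3.13 and SGSH at -3.10. TFE3 led upwards at 1.83, followed by NPC2 at 1.39, CD63 at 1.31 and IDS at 1.11. There CD63 was not called without replicate 1 of monolayers before NEE (log2 0.86, adjusted p = 0.190) or replicate 3 of NEE-sampled RNA (log2 1.01, adjusted p = 0.0833). CTSB and CLN3 were not called without the former (log2 -0.75 and -2.95, adjusted p = 0.0606 and 0.326). With upper-quartile scaling the median of all genes moved from -0.20 to -0.04 over the 4 times and from -0.21 to -0.08 before NEE, and the members' median over the 4 times to -0.59; no called member changed sign.

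The difference from monolayers varied with transcript length. Over the 41 members the log2 fold change had a Spearman correlation of -0.317 with the length of the principal transcript and 0.265 with its GC content. Over 13455 genes the same values were -0.388 and 0.286. These describe genes that share libraries, and the part of length in the result was not tested. NPC2 and CD63 had the shortest transcripts of the members, at 1035 and 1233 bases. IDS, at 7619 bases, had the longest and was also higher in NEE-sampled RNA. Between cultures the correlation with length was 0.020 over the members and -0.124 over all genes.

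Other genes of the lysosomal system were read from 7 lists by function; between cultures 10.0% of all genes passed as higher and 9.84% as lower, so that counts such as those of the proton pump lie near that share. Between cultures, 17 of 23 other hydrolases passed as higher in spheroids and none as lower, among them the peptidase SCPEP1, at 110.3 ± 17.1 CPM in monolayers and 253 ± 35.3 CPM in spheroids (SD, n = 8 each), and the cathepsins CTSO (log2 1.71) and CTSS (log2 2.07). Of 13 tested other subunits of the proton pump, 2 were higher (ATP6AP2 at log2 0.57 and TCIRG1 at 1.15) and 1 lower (ATP6V0A2 at -0.95). Of 13 other membrane proteins, 4 were higher, led by the ion channel TPCN1 (log2 1.32), TMEM106B and LAPTM4A. Of 12 sorting genes, 4 were higher and 1 lower; the higher ones included GNPTG and NAGPA, which serve the making of the mannose 6-phosphate tag (log2 1.32 and 1.11), and the sorting receptor SORT1 (log2 0.86). Of 19 genes that control MiT/TFE factors and mTORC1, 5 were higher and 1 lower, with GPNMB, a known MiT/TFE target, at log2 1.37 and MITF, a relative of TFEB, at 0.79. Of 20 autophagy genes, 6 were higher, with WIPI1 at log2 1.74 and GABARAPL1 at 1.45, and 1, ATG16L1, was lower (log2 -0.71). Of 17 genes of the response to lysosome damage, 4 were higher and none lower, among them TSG101 (log2 0.47), the galectin LGALS8 (log2 0.59) and ALOX5 (log2 2.52).

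In NEE-sampled RNA against monolayers over the 4 times, 26.0% of all genes passed as lower and 22.5% as higher, and several of the lists lie near these shares. There 13 of the 23 other hydrolases were lower and 1 higher, with SCPEP1 at 32.6 ± 8.45 CPM (SD, n = 3) against 110.3 ± 17.1 CPM (SD, n = 8). Of the 13 pump subunits 6 were lower and 4 higher: ATP6AP2 had a log2 of -2.38 and ATP6V1F one of 2.43. Of the 19 genes that control MiT/TFE factors 6 were higher and 6 lower, and 3 subunits of the Ragulator complex, which anchors mTORC1 at lysosomes, were among the higher ones, LAMTOR4 at log2 2.85, LAMTOR2 at 2.28 and LAMTOR5 at 1.87. The 12 sorting genes gave 3 higher and 5 lower, with AP3B1 at -2.19. The 20 autophagy genes gave 3 higher and 5 lower, with GABARAPL2 at 1.93 and ATG9A at -2.47. The 17 genes of the damage response gave 6 higher and 4 lower, with the galectin LGALS1 at 2.13 and VCP at -2.07. The 13 other membrane proteins gave 2 higher and 7 lower, with SLC38A9 at -3.06.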

How the data were processed

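RNA of 16 lysates (8 groups of 2) and 3 technical replicates of NEE-sampled RNA was sequenced on paired ends. The deposited files hold whole-number read counts for each gene. The submitters' processing notes name HISAT2, Trimmomatic, FastQC and featureCounts, and the build GRCh38. Tool versions, annotation, strand setting and the handling of multiply matching reads were not given in the sources used here. Without known strand, counts of members that overlap other genes (PPT1, MCOLN1, NPC2, SGSH, LIPA, NPC1 and CLN3 among them) may include reads of those genes.

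Counts were tested with edgeR 4.0.16 (R 4.3.3): TMM scaling, filterByExpr, the robust quasi-likelihood F test, and p-values adjusted by Benjamini-Hochberg across every gene of a fit, with a threshold of 0.05. The lysate fit held 16 libraries, 8 groups and 17822 genes. The fit of NEE-sampled RNA held the 3 technical replicates, 8 monolayer lysates and 17067 genes. Each standard error (SE) is the size of the log2 fold change divided by the square root of F. DESeq2 1.42.0 was an alternative, beside other scalings and filters, the replicate block, fits of the compared groups only, summed technical replicates and leaving out each library. The test was tried on simulated data, with changes given to genes drawn at random above a low count rather than to the members. Between cultures it recovered 40% of genes changed 2-fold. At 2 h in monolayers it recovered 2% of those changed 2-fold and 40% of those changed 4-fold. At 24 h in both cultures together it recovered 26% of those changed 2-fold. Depth was 16031034 to 24571083 counts in lysates and 13626934 to 18512985 in NEE-sampled RNA, and intervals on counts cover counting error only.

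The labels enter the replicate number of lysates as the batch, which pairs same-numbered libraries. Over 8235 genes, deviations from group means of such libraries had correlations of -0.33 to 0.555 in 28 pairs of groups (median 0.22, above 0.1 in 19). In NEE-sampled RNA the number is that of a technical replicate, so the block there carries little meaning.

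The members and lists were chosen with earlier results of these data known. All members are described; the 4 called with the largest change in each direction, or the 4 with the smallest p where fewer were called, are given in full, and up to 3 genes by smallest p are named from each other list. The promoter windows of LAMP1, MCOLN1 and ATP6V0D1 were added after values were seen, so that every match is printed. Promoters came from RefSeq, lengths and positions from GENCODE 29.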

Additional observations from a re-analysis of the deposited data

How the results depend on the processing

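The count of members called between cultures over the 4 times stayed at 25 to 28 under every alternative and left-out library, and no called member changed sign in any comparison under any alternative run. Before NEE the count of 11 was less stable: DESeq2 called 17 (and 662 genes higher and 683 lower of all genes, against 125 and 106 with edgeR), a fit of the 2 groups alone called 0 (CTSD at log2 2.03 with adjusted p = 0.408 there, with fewer samples to estimate the spread), and leaving out each of its 4 libraries gave 4 to 14. After NEE the count of 0 changed once: without a filter on low counts 1 member, NPC1, was called lower at 24 h in both cultures together (log2 -0.89, adjusted p = 0.0357), and the cause was not tested; with the filter its log2 was -0.17 without monolayers before NEE, replicate 1. For NEE-sampled RNA over the 4 times the count of 30 was 26 to 31 when 1 library was left out and 20 with the technical replicates summed, and against monolayers before NEE the count of 24 was 22 to 30 and 16. With the replicate block, 28, 14 and 0 members were called between cultures over the 4 times, before NEE and after NEE, and 27 and 25 for NEE-sampled RNA; against monolayers before NEE the block added CTSA and FUCA1 (log2 -0.91 and -1.34) and lost CLN3 (adjusted p = 0.119), and it changed no call other than these and those given with the results. With 2 libraries in a group, 2-fold changes after NEE were mostly missed in simulated data, where the changed genes were drawn at random. The test recovered 2% of them at 2 h in monolayers and 26% at 24 h in both cultures together. Its reach for the members themselves was not simulated. Between cultures before NEE, also with 2 libraries in each, the smallest difference called in a member was close to 2-fold. Far more genes were called there than in any comparison after NEE, which makes the adjusted threshold easier to pass. That value is therefore no measure of the reach after NEE. LAMP1, CLN3, CTSZ and TFEB rest on few counts.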

Other observations

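Some members differed by replicate number, which the labels enter as the batch of the lysates; this comparison was added after the values were seen. With edgeR, 3 of the 41 members passed as different between replicate 1 and replicate 2 over the 8 lysate groups, which is 7.32%, against 1.22% of all genes. NPC1 was higher in replicate 1 in 8 of 8 groups, with means of 208 and 90.3 CPM (log2 of replicate 2 against 1 of -1.14 ± 0.17 SE, adjusted p = 0.00764). CTSB was also higher in replicate 1 in 8 of 8 groups, with means of 2205 and 1350 CPM (log2 -0.58 ± 0.11 SE, adjusted p = 0.0290). CD63 was lower in replicate 1 in 8 of 8 groups, with means of 224 and 329.6 CPM (log2 0.59 ± 0.11 SE, adjusted p = 0.0214).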
